A study of Mus musculus with 48 samples.

Results

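The genes described here are 6 members of a pair of gene families, the serum- and glucocorticoid-regulated kinases Sgk1 and Sgk3 and the TSC22 leucine zipper proteins Tsc22d1, Tsc22d2, Tsc22d3 and Tsc22d4. They were chosen by symbol, and are 6 of the 15304 genes in the hippocampus files and of the 15263 in the frontal cortex files. All 6 passed the filter on low counts in both tissues. The study measured mRNA by RNA sequencing in male C57BL/6 mice aged postnatal day 63 to 91 that spent 3 days in a stress environment or in a control environment, labelled non-stress. An intraperitoneal injection of esomeprazole, a proton pump inhibitor, or of vehicle was given 60 min after each session, and tissue was taken 12 h after the last one. The dose is given as 2 mg/kg in the series design, whereas the treatment protocol prints it per kg in grams. The 4 conditions were stress with esomeprazole, stress with vehicle, non-stress with esomeprazole and non-stress with vehicle, each with 6 libraries from hippocampus and 6 from frontal cortex, 48 in all. What the stress sessions consisted of is not stated in the labels, which also name no genetic alteration. The series design lists 24 mice for the 48 libraries, so each mouse may have given both tissues, but the labels do not say that a replicate number marks the same mouse.

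SGK proteins are serine/threonine kinases related to AKT. They are activated downstream of phosphoinositide 3-kinase, through PDK1 and mTOR complex 2, and act on substrates such as the ubiquitin ligase NEDD4L, NDRG1 and FOXO transcription factors. Sgk1 is set apart from its paralogues by its control at the level of transcription, since glucocorticoids and mineralocorticoids raise its mRNA, whereas Sgk3 carries a lipid-binding domain that places it on endosomes. TSC22 proteins share a short leucine zipper domain through which they pair. Tsc22d3 encodes GILZ, the glucocorticoid-induced leucine zipper, which binds NF-kappa-B and AP-1 subunits and is commonly read as a marker of glucocorticoid receptor activity. Tsc22d1 was first described as a transcript stimulated by TGF-beta, and Tsc22d2 and Tsc22d4 encode longer paralogues with the same domain.

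Each library held 25.3 to 42.0 M gene reads in hippocampus and 27.6 to 41.5 M in frontal cortex. The share of reads that fell in no annotated feature ranged over 5.03 to 20.6% in hippocampus and 4.50 to 19.9% in frontal cortex. It lay under 12% in 5 hippocampus and 7 frontal cortex libraries. These were 2 stressed and 3 non-stressed hippocampus libraries and 4 stressed and 3 non-stressed frontal cortex libraries. The 12% line was a chosen cut and did not fall at the widest gap between shares in either tissue. The labelled tissues showed in their markers, as 8 of 10 measured hippocampal neuron genes were called higher in hippocampus, while of 12 cortical layer genes 8 were called lower there and 2 higher. Marker sums of other cells also differed between stressed and non-stressed libraries, partly through a single condition. Summed markers of striatal neurons (14 of 15 listed genes had values, none at 0 in all libraries) had a lowest, median and highest value of 9264, 13029 and 115424 normalised reads in stressed hippocampus, against 8845, 10045 and 16273 in non-stressed hippocampus. Summed hippocampal neuron markers (12 of 12) were 19667, 37700 and 67208 in stressed hippocampus and 40103, 46849 and 108806 in non-stressed hippocampus. In frontal cortex, olfactory bulb markers (15 of 15) were 7058, 58052 and 93555 in stressed and 3160, 37303 and 68357 in non-stressed libraries, and meningeal fibroblast markers (10 of 10) were 4343, 7551 and 13067 in stressed and 3355, 5381 and 7342 in non-stressed libraries. The striatal median was 63085 in stress with esomeprazole, but 9899 in stress with vehicle, 10581 in non-stress with esomeprazole and 9587 in non-stress with vehicle. The bulb median was 7975 in non-stress with vehicle and 55708 to 66531 in the other groups. For meningeal markers these were 4424 and 6803 to 7858. Hippocampal neuron medians were 30355 and 41010 in stress with esomeprazole and with vehicle, and 43598 and 48145 in the non-stressed groups. Other lists differed by condition as well. The cortical layer median in frontal cortex was 41904.5 in non-stress with vehicle and 27199 to 28536 in the other groups. The choroid plexus median in hippocampus was 2768 in non-stress with esomeprazole and 16557 to 39726 in the other groups. The part of the marker lists in the stress results was not tested. In bulk tissue fewer cells of a type and less RNA per cell cannot be told apart.

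The promoters of the 2 steroid-induced members are shown because the receptor for corticosterone acts by binding DNA. RefSeq windows (build GRCm38.p6, 250 bases before to 50 after a start site) were at hand for 3 of the 6 members and gave 14 windows, 6 for Sgk1, 5 for Tsc22d1 and 3 for Tsc22d3. The full palindromic glucocorticoid response element, searched on both strands as AGAACA, any 3 bases, then TGTTCT, is in 1 of the 14. That is the Sgk1 window below (chr10:21993640-21993939, plus strand), with the matched letters in capitals at 21993701 to 21993715, 175 bases before the start site. Of all 32851 RefSeq windows, 3 (0.00913%) hold it. The most distal Tsc22d3 window (chrX:140600473-140600772, minus strand) holds only the single arm TGTTCT, in capitals, which is also the second arm of the full element and occurs in 19.0% of all windows.
Sgk1: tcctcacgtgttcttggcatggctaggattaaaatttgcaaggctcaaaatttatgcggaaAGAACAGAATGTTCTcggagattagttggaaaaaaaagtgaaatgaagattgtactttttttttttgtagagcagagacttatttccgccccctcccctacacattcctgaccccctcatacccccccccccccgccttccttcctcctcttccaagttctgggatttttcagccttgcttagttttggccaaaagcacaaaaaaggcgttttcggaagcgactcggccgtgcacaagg
Tsc22d3: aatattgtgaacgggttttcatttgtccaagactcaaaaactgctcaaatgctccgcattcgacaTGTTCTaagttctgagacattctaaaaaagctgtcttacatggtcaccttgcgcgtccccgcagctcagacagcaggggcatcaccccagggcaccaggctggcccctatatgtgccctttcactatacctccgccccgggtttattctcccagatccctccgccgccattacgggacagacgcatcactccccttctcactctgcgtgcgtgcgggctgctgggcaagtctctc
The looser core, GNACA, any 3 bases, then TGTNC, which the full element contains, is in 0.475% of all windows and in the same 1 Sgk1 window among the 14. The single arm is in 5 of the 14, 3 of them from Sgk1, 1 from Tsc22d1 and 1 from Tsc22d3. These matches describe letters in 300-base windows and not binding.

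Sgk1 (chromosome 10, 21882184 to 21999903, plus strand, GENCODE vM21 on GRCm38) had a mean of 2872 ± 431 normalised reads in stressed hippocampus and 3999.5 ± 821 in non-stressed hippocampus (SD, n = 12 each). Lowest, median and highest values were 2489.7, 2893 and 4043 in stress with esomeprazole, 2473, 2763 and 3084 in stress with vehicle, 2966, 4460.3 and 5009 in non-stress with esomeprazole, and 2515, 3705 and 5068 in non-stress with vehicle. All 12 stressed libraries lay under the non-stressed median, yet the ranges overlapped, with 2 stressed libraries under the lowest non-stressed one. In frontal cortex the mean was 1828 ± 278 in stressed and 2423 ± 516 in non-stressed libraries (SD, n = 12 each). There the 6 values of a group had a lowest, median and highest of 1594, 1830.2 and 2408 in stress with esomeprazole, 1509, 1681 and 2189.7 in stress with vehicle, 1595, 2641 and 2776 in non-stress with esomeprazole, and 1762, 2511 and 3388 in non-stress with vehicle. Again all 12 stressed libraries were below the non-stressed median, and 4 were below every non-stressed library.

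Tsc22d3 (chromosome X, 140539528 to 140600659, minus strand) had a mean of 2242 ± 496 normalised reads in stressed hippocampus and 3152 ± 511 in non-stressed hippocampus (SD, n = 12 each). Lowest, median and highest values were 1767, 2194 and 2831 in stress with esomeprazole, 1727, 2031 and 3245 in stress with vehicle, 2857, 3374 and 3839 in non-stress with esomeprazole, and 2164, 2963 and 3578 in non-stress with vehicle. Under esomeprazole the highest stressed value, 2831, lay just under the lowest non-stressed one, 2857, and under vehicle the groups overlapped. How many of all genes separate in this way was not counted, and the interaction of stress and drug, given below, was not called. Frontal cortex averaged 2032 ± 333 in stressed and 2961 ± 780 in non-stressed libraries (SD, n = 12 each). Its group values were 1659, 1974 and 2609 in stress with esomeprazole, 1715, 1856 and 2525 in stress with vehicle, 2065, 2627 and 4412 in non-stress with esomeprazole, and 2094, 2886 and 3479 in non-stress with vehicle, each as lowest, median and highest. In that tissue 8 of 12 stressed libraries lay below every non-stressed one.

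**Figure D1:**
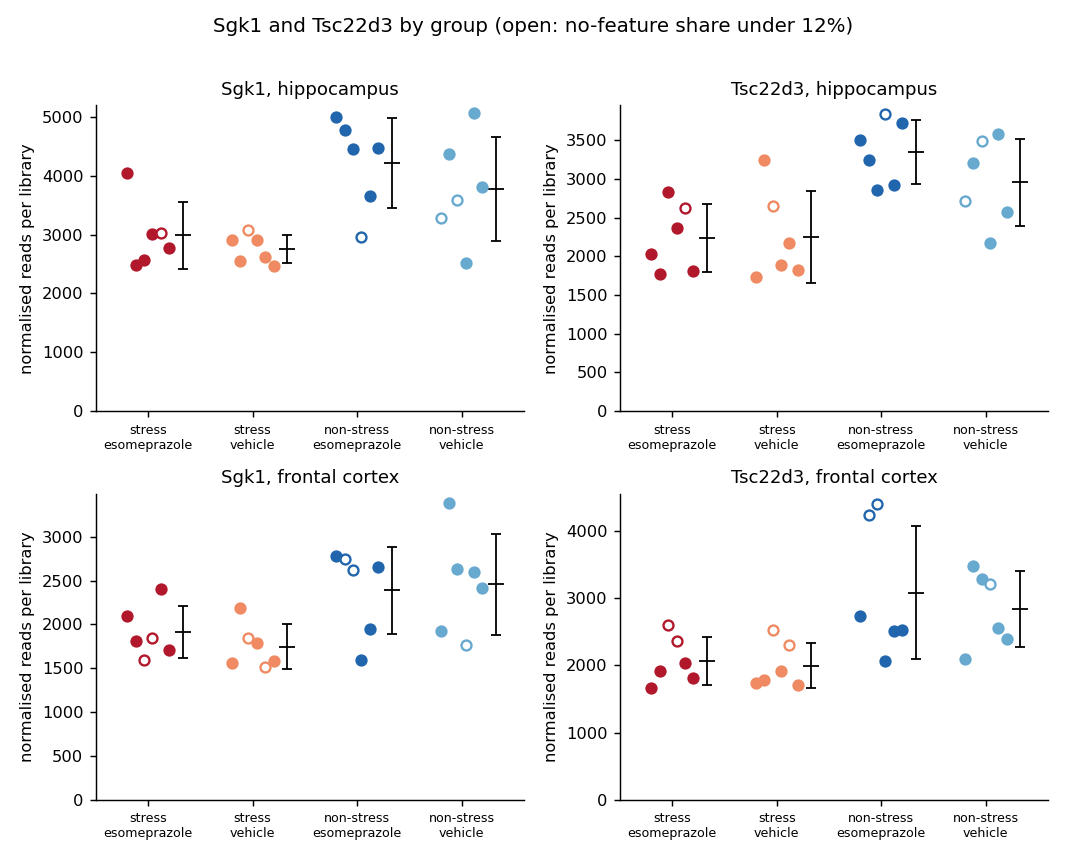
Normalised reads of Sgk1 and Tsc22d3 in each library, by condition and tissue, with bars for the mean ± SD of 6 libraries and open points for libraries with a no-feature share under 12%. Stressed libraries average 2872 against 3999.5 for Sgk1 and 2242 against 3152 for Tsc22d3 in hippocampus, and the point clouds overlap for both genes.

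Averaged over the 2 drug arms, the log2 fold change of stress over non-stress in hippocampus was -0.46 ± 0.11 for Sgk1 and -0.50 ± 0.12 for Tsc22d3 (SE). Unadjusted limma p was 0.000445 and 0.000308, and the Benjamini-Hochberg adjusted p over the 15062 genes tested was 0.399 for both, so neither was called. limma called 0.0133% of those genes, 2 in number, and 2.62% of genes were lower at an unadjusted p under 0.05, as were 2 of the 6 members. In frontal cortex the fold change was -0.39 ± 0.12 for Sgk1 and -0.52 ± 0.13 for Tsc22d3 (SE). Unadjusted limma p was 0.00333 and 0.000694 there, and the adjusted p 0.941 and 0.687. There limma called 0 of 15040 genes (0%), with 162 lower (1.08%, again holding the same 2 members) and 408 higher at an unadjusted p under 0.05, while edgeR called 1 and DESeq2 10. The deposited scaling made these counts 229 lower and 349 higher. In hippocampus 394 genes were lower and 495 higher, against 501 and 404 under median-of-ratios scaling. These 2 members were proposed with such values known, so the count is no independent evidence.

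The other tests put the steroid-induced pair on both sides of the threshold. DESeq2, which called 127 hippocampal genes (0.843% of 15058), gave Sgk1 a log2 fold change of -0.50 with adjusted p = 0.00565 and Tsc22d3 -0.51 with adjusted p = 0.00838, while edgeR gave adjusted p = 0.118 and 0.133. In frontal cortex Tsc22d3 was called by limma when the no-feature share entered the fit (-0.54 ± 0.081, adjusted p = 0.00538), a fit that called 24 genes (0.16%), but not by DESeq2 (adjusted p = 0.0577). Over the 10 settings run on all libraries or on a fixed subset, Tsc22d3 stayed between -0.60 and -0.48 in hippocampus and between -0.55 and -0.48 in frontal cortex, and Sgk1 between -0.54 and -0.46 and between -0.47 and -0.33. Without the 5 hippocampus libraries with high striatal markers, 4 of them stressed with esomeprazole and 1 stressed with vehicle, Sgk1 was at -0.49 ± 0.14 and Tsc22d3 at -0.60 ± 0.13 (SE, limma adjusted p = 1.00 for both). Without the 7 frontal cortex libraries with low bulb markers the values were -0.47 ± 0.14 and -0.48 ± 0.17 (SE, adjusted p = 0.749 for both). Those 7 were non-stress vehicle 1, 2, 4 and 6, non-stress esomeprazole 3, stress vehicle 4 and stress esomeprazole 5. Most of the non-stress vehicle group was thus left out. Both genes kept a negative sign in the fits without the high striatal and without the low bulb libraries.

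Within single drug arms, 6 libraries against 6, limma called 0 genes in each of the 4 fits (0%). Stress over non-stress under esomeprazole in hippocampus was -0.50 ± 0.16 for Sgk1 and -0.60 ± 0.17 for Tsc22d3, and under vehicle -0.42 ± 0.16 and -0.41 ± 0.17 (log2, SE). Frontal cortex gave -0.31 ± 0.17 and -0.54 ± 0.19 under esomeprazole and -0.47 ± 0.17 and -0.50 ± 0.19 under vehicle. All 8 values were negative. At an unadjusted limma p under 0.05, 485 genes were higher and 376 lower under esomeprazole in hippocampus, 39 and 43 under vehicle there, 39 and 32 under esomeprazole in frontal cortex, and 607 and 366 under vehicle there. The first of these splits turned with the scaling, to 376 higher and 517 lower under median-of-ratios scaling and 375 and 515 under the deposited scaling. edgeR also called 0 genes in the 4 fits, and DESeq2 called 68 in hippocampus under esomeprazole and 1 in each of the others.

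The steroid-induced members were next set against their paralogues within each library, which removes any scaling shared by both genes. For each pair the log2 difference was compared between stressed and non-stressed libraries by a two-sided exact permutation test that kept the drug arms apart, and the 8 p-values (4 pairs in 2 tissues) were adjusted together. The TSC22 pairs share Tsc22d3 and are not independent of each other. Sgk1 and Tsc22d3 were proposed with their stress values in these libraries known. The adjustment is over these 8 tests and not over all genes, so the p-values are no independent evidence of a fall with stress.

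Relative to Tsc22d1, Tsc22d3 fell with stress in both tissues. Its reads were 17.2 ± 1.95% of those of Tsc22d1 in hippocampus under stress with esomeprazole and 17.4 ± 2.06% under stress with vehicle, against 25.2 ± 4.16% in non-stress with esomeprazole and 22.5 ± 4.66% in non-stress with vehicle (SD, n = 6 each). In frontal cortex the share was 16.6 ± 0.806% and 16.6 ± 1.17% in the stressed groups with esomeprazole and with vehicle, against 24.04 ± 2.76% and 20.4 ± 3.49% in the non-stressed groups with esomeprazole and with vehicle (SD, n = 6 each). The percentages are of raw reads, so gene length enters each equally and they are read across groups only. Over all stressed libraries they ran from 14.98 to 21.2% in hippocampus and from 15.2 to 18.5% in frontal cortex, against 17.4 to 31.3% and 15.7 to 27.8% in non-stressed libraries. The ranges overlapped, and 9 of 12 non-stressed libraries in each tissue lay above every stressed one.

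The log2 difference of Tsc22d3 minus Tsc22d1, stress minus non-stress, was -0.45 ± 0.091 in hippocampus (SE, exact permutation p = 0.000117, adjusted 0.000469) and -0.41 ± 0.067 in frontal cortex (exact permutation p = 5.15e-05, adjusted 0.000412). By drug arm it was -0.55 under esomeprazole and -0.35 under vehicle in hippocampus, and -0.53 under esomeprazole and -0.28 under vehicle in frontal cortex. All 12 stressed libraries of each tissue lay below the non-stressed mean of their own arm. Without the libraries under 12% no-feature reads the difference was -0.52 (adjusted p = 0.000504) in hippocampus and -0.43 (adjusted p = 0.00272) in frontal cortex, and without the marker classes named above it was -0.55 and -0.51 (adjusted p = 0.000756 for both).

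Against Tsc22d4 the 2 tissues gave different calls. In frontal cortex Tsc22d3 had 77.0 ± 18.7% of the reads of Tsc22d4 in stressed libraries, against 124 ± 37.3% in non-stressed libraries (SD, n = 12 each). The log2 difference was -0.66 ± 0.19 there (SE, exact permutation p = 0.00239, adjusted 0.00638), with 12 of 12 stressed libraries below their arm's non-stressed mean. In hippocampus the share was 87.2 ± 21.0% in stressed and 117 ± 48.1% in non-stressed libraries, with a log2 difference of -0.32 ± 0.26 (SE, adjusted exact permutation p = 0.362) and 9 of 12 libraries below. Without the 5 libraries under 12% no-feature reads that hippocampal value was -0.52 ± 0.13 (adjusted p = 0.00302, 10 of 10 stressed libraries below). With 1 library left out it was called in 1 of 24 fits, at -0.50 (adjusted p = 0.0484) without non-stress esomeprazole 4. These 24 fits ran from -0.50 to -0.20, with an adjusted p of up to 0.566. Without the 5 libraries with high striatal markers the value was -0.43 (adjusted p = 0.555). The difference between the tissues was not tested.

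Sgk1 against Sgk3 and Tsc22d3 against Tsc22d2 did not pass the test in either tissue. Sgk1 minus Sgk3 was -0.64 ± 0.50 in hippocampus (SE, adjusted exact permutation p = 0.362) and 0.16 ± 0.65 in frontal cortex (adjusted p = 0.805). Tsc22d3 minus Tsc22d2 was -0.32 ± 0.45 in hippocampus (adjusted p = 0.638) and -0.15 ± 0.57 in frontal cortex (adjusted p = 0.805). The standard errors of these 4 values exceed those of Tsc22d3 minus Tsc22d1 by a wide margin, and they carry the spread of Sgk3 and Tsc22d2 described below. The hippocampal Sgk1 minus Sgk3 was 0.0036 without the 5 libraries with high striatal markers. Without the libraries under 12% no-feature reads it was -0.56 in hippocampus (adjusted p = 0.00711) and -0.17 in frontal cortex (adjusted p = 0.516).

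**Figure D2:**
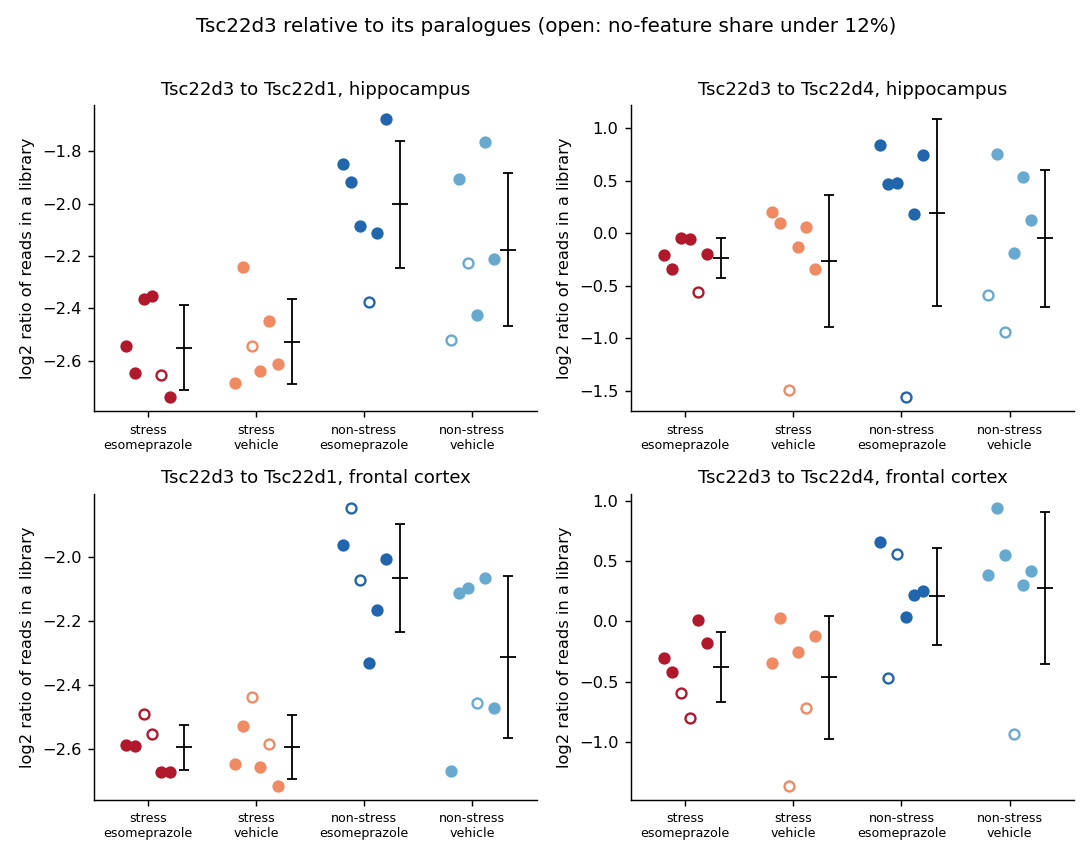
Log2 ratio of Tsc22d3 reads to Tsc22d1 reads and to Tsc22d4 reads in each library, by condition and tissue, with bars for the mean ± SD of 6 libraries. Stressed libraries sit lower than non-stressed ones for the ratio to Tsc22d1 in both tissues (-0.45 and -0.41 log2). For the ratio to Tsc22d4 the stress difference has a larger SE in hippocampus (0.26) than in frontal cortex (0.19). Under stress with esomeprazole, however, that ratio is less spread in hippocampus.

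The 4 paralogues themselves showed no call with stress in limma. Tsc22d1 (chromosome 14, 76414961 to 76507765, plus strand) had a log2 fold change of stress over non-stress of -0.05 ± 0.10 in hippocampus and -0.11 ± 0.11 in frontal cortex, the smallest standard errors of the 4. Tsc22d4 (chromosome 5, 137745730 to 137768450, plus strand) was at -0.18 ± 0.29 and 0.15 ± 0.26. Tsc22d2 (chromosome 3, 58414715 to 58466783, plus strand) was at -0.18 ± 0.36 and -0.37 ± 0.45, and Sgk3 (chromosome 1, 9798107 to 9900845, plus strand) at 0.18 ± 0.50 and -0.55 ± 0.63 (SE, hippocampus and frontal cortex). The standard errors of Sgk3 and Tsc22d2 in both tissues, and of Tsc22d4 in hippocampus, leave room for a change as large as that of Tsc22d3. Mean normalised reads in hippocampus were 12886 ± 1975 for Tsc22d1 in stressed and 13431 ± 2539 in non-stressed libraries, and 2858 ± 1559 for Tsc22d4 in stressed and 3538 ± 2802 in non-stressed libraries (SD, n = 12 each).

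**Figure D3:**
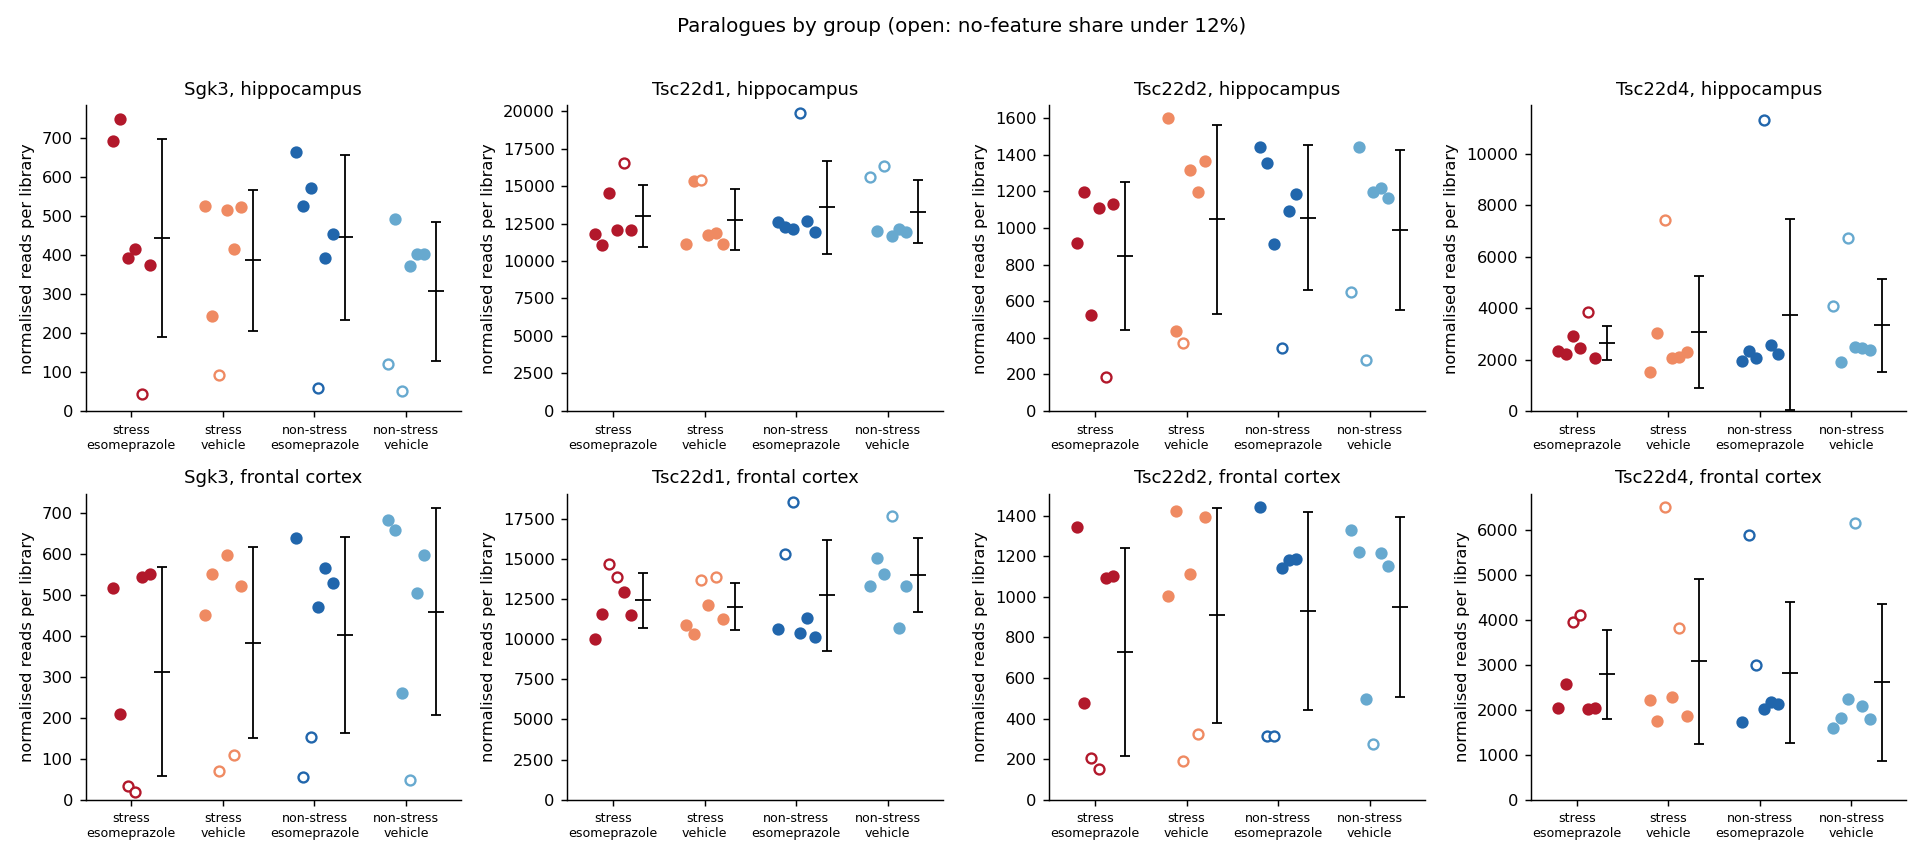
Normalised reads of Sgk3, Tsc22d1, Tsc22d2 and Tsc22d4 in each library, by condition and tissue, on linear axes, with bars for the mean ± SD of 6 libraries and open points for libraries with a no-feature share under 12%. Open points lie low for Sgk3 and Tsc22d2 and high for Tsc22d1 and Tsc22d4, and overlap the filled ones for Tsc22d2 in hippocampus and for Tsc22d1 in frontal cortex.

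These 4 genes differed between libraries along the no-feature share. The number of all genes that split or correlate with it in this way was not counted. The pattern is therefore not shown to be particular to these 4 genes. Sgk3 had 42.1 to 119.6 normalised reads in the 5 hippocampus libraries under 12% and 243 to 747 in the other 19, and 20.0 to 153 in the 7 frontal cortex libraries under 12% and 209 to 682 in the other 17, with no overlap. Tsc22d4 went the other way, with 3855 to 11328 in the hippocampus libraries under 12% and 1498 to 3031 in the rest, and 3001 to 6508 against 1599.9 to 2564 in frontal cortex, again with no overlap. Tsc22d2 was lower in the libraries under 12% (187 to 648 against 437 to 1599.7 in hippocampus, 150.97 to 326 against 476 to 1441 in frontal cortex). Tsc22d1 was higher in them, at 15403 to 19903 against 11069 to 15334 in hippocampus and 13680.1 to 18559 against 9988 to 15040.4 in frontal cortex. Microglial marker sums went with the same split, at 26814 to 50431 against 16724 to 24480.4 in hippocampus and 24497 to 49141 against 15906 to 22362 in frontal cortex. Of the other marker lists, hippocampal neuron sums (64682 to 108806 against 19667 to 49139) and olfactory bulb sums (4004 to 7444 against 7595 to 15739.6) also split there without overlap in hippocampus, and none of them did in frontal cortex.

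Across the 24 libraries of a tissue, Pearson's r of log2 reads with the no-feature share was 0.91 for Sgk3, 0.86 for Tsc22d2, -0.89 for Tsc22d1 and -0.94 for Tsc22d4 in hippocampus, and 0.93, 0.95, -0.76 and -0.94 in frontal cortex. The same r was 0.16 and 0.15 for Sgk1 and -0.37 and -0.55 for Tsc22d3. These points share libraries, depth and scaling, and r is given as a description. The highest library exceeded the lowest 17.8-fold in hippocampus and 34.2-fold in frontal cortex for Sgk3, but 2.05-fold and 2.25-fold for Sgk1 and 2.22-fold and 2.66-fold for Tsc22d3. Sgk1 averaged 3194 ± 255 in the hippocampus libraries under 12% (SD, n = 5) and 3499 ± 956 in the others (SD, n = 19), and 1989 ± 492 (n = 7) and 2181 ± 516 (n = 17) in frontal cortex. Tsc22d3 averaged 3063 ± 566 under 12% and 2601 ± 684 in the others in hippocampus, and 3097 ± 894 and 2248 ± 543 in frontal cortex (SD, same n). What lies behind these differences along the no-feature share was not tested.

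**Figure D4:**
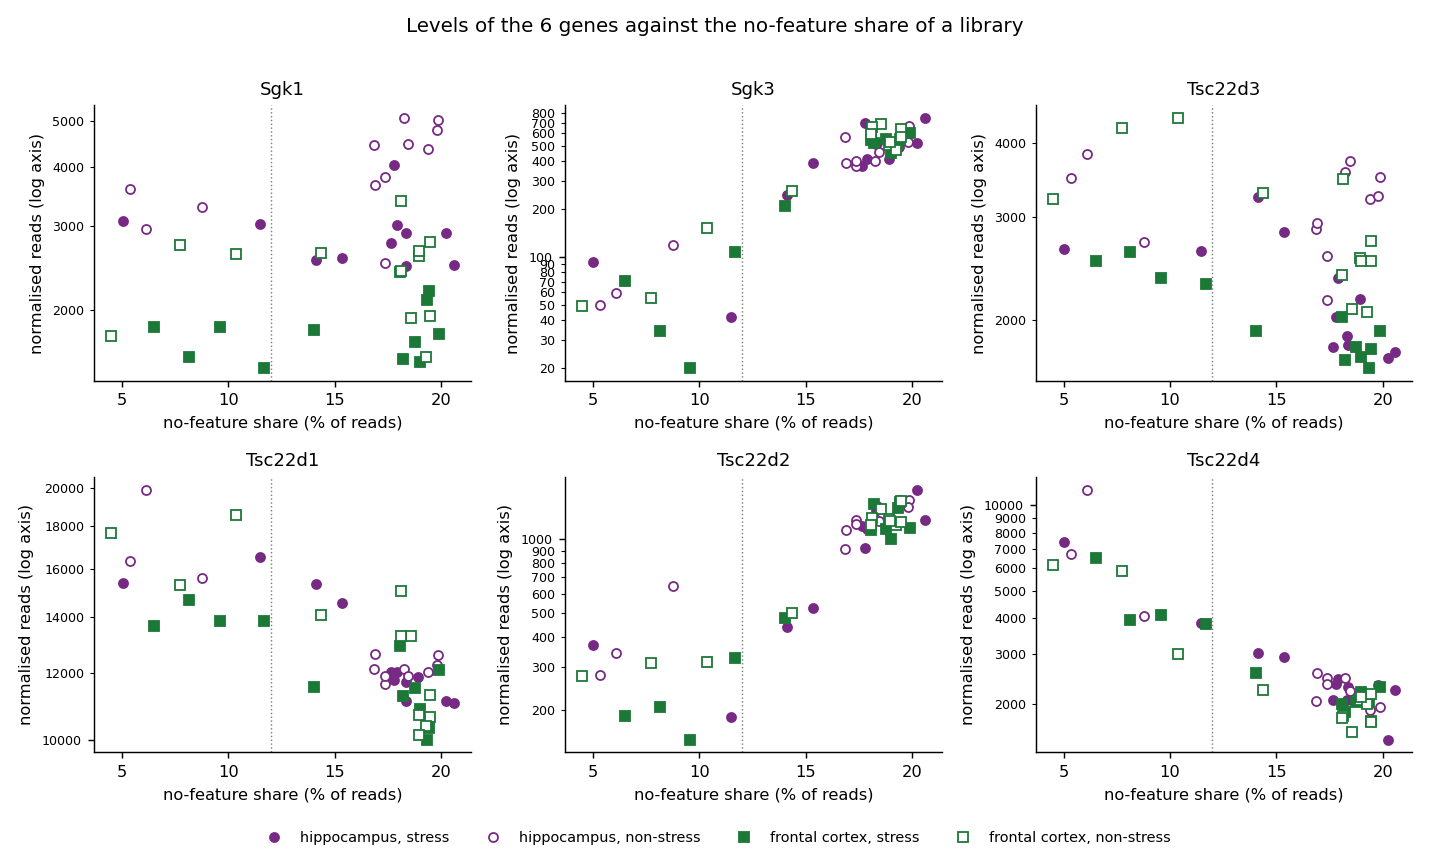
Normalised reads of the 6 genes (log axis) against the percentage of reads in no annotated feature, one point per library and tissue, with a dotted line at 12%. Sgk3 and Tsc22d2 climb with the share (r of 0.86 to 0.95), Tsc22d1 and Tsc22d4 decline (r of -0.94 to -0.76), and Sgk1 shows little trend (r of 0.16 and 0.15).

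Esomeprazole was set against vehicle over both stress arms. The log2 fold change in hippocampus was 0.14 ± 0.11 for Sgk1, 0.30 ± 0.50 for Sgk3, 0.02 ± 0.10 for Tsc22d1, -0.10 ± 0.36 for Tsc22d2, 0.10 ± 0.12 for Tsc22d3 and -0.04 ± 0.29 for Tsc22d4 (SE). The frontal cortex values were 0.05 ± 0.12, -0.48 ± 0.63, -0.06 ± 0.11, -0.25 ± 0.45, 0.06 ± 0.13 and 0.06 ± 0.26 in the same order of genes. Under the deposited scaling Sgk1, Tsc22d1 and Tsc22d3 were at 0.32, 0.21 and 0.29 in hippocampus. None of the 6 was called in either tissue, also under that scaling, and limma, edgeR and DESeq2 each called 0 genes in both tissues (0%). At an unadjusted limma p under 0.05, 83 genes were higher and 26 lower in hippocampus, and 93 higher and 71 lower in frontal cortex. The hippocampal split depended on the scaling, with 61 higher and 37 lower under median-of-ratios scaling and 2054 higher and 1 lower under the deposited scaling, which put the median of all genes at 0.18 against -0.01. The interaction of stress and drug was -0.07 ± 0.22 for Sgk1 and -0.19 ± 0.24 for Tsc22d3 in hippocampus and 0.17 ± 0.24 and -0.04 ± 0.26 in frontal cortex (log2, SE), with 0 genes called by the 3 tools (0%) and, at an unadjusted limma p under 0.05, 44 higher and 13 lower in hippocampus and 67 and 42 in frontal cortex. The hippocampal split was 26 and 31 under median-of-ratios scaling and 25 and 32 under the deposited scaling. A drug effect on the stress difference of either gene was therefore not detectable at this spread.

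Sgk1 was the only member called between the tissues in the main limma fit, which is no larger a share than among all genes. It rose in hippocampus over frontal cortex by a log2 fold change of 0.70 ± 0.081 (SE, limma adjusted p = 2.27e-09), in a comparison that called 3817 of 14844 genes (25.7%), and 1 of the 6 members. On a scale set jointly over both tissues it had 3456 ± 879 normalised reads in hippocampus and 2114 ± 503 in frontal cortex (SD, n = 24 each), with a lowest, median and highest of 2491, 3049.7 and 5133 in hippocampus and 1505, 1924 and 3359.9 in frontal cortex. The ranges overlapped, and the call held in each of the 48 fits that left out 1 library (0.68 to 0.73). Tsc22d3 had 2709 ± 673 in hippocampus and 2483 ± 747 in frontal cortex (SD, n = 24 each), a log2 fold change of 0.14 ± 0.086 (limma adjusted p = 0.296). It reached 0.26 (adjusted p = 0.0122) without the libraries under 12% no-feature reads, where 44.5% of genes were called. Tsc22d4 was at 0.14 ± 0.19, and at 0.19 (adjusted p = 0.0108) in a fit that held the no-feature share, where 50.1% of genes were called. Sgk3, Tsc22d1 and Tsc22d2 were at 0.23 ± 0.41, 0.06 ± 0.072 and 0.30 ± 0.29.

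The stress effect itself did not differ detectably between the tissues. Its hippocampus minus frontal cortex difference was -0.08 ± 0.16 for Sgk1 and 0.01 ± 0.17 for Tsc22d3 (log2, SE). limma and edgeR called 0 genes for that difference (0%, with 313 higher and 253 lower at an unadjusted limma p under 0.05), and DESeq2 called 15.

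**Figure D5:**
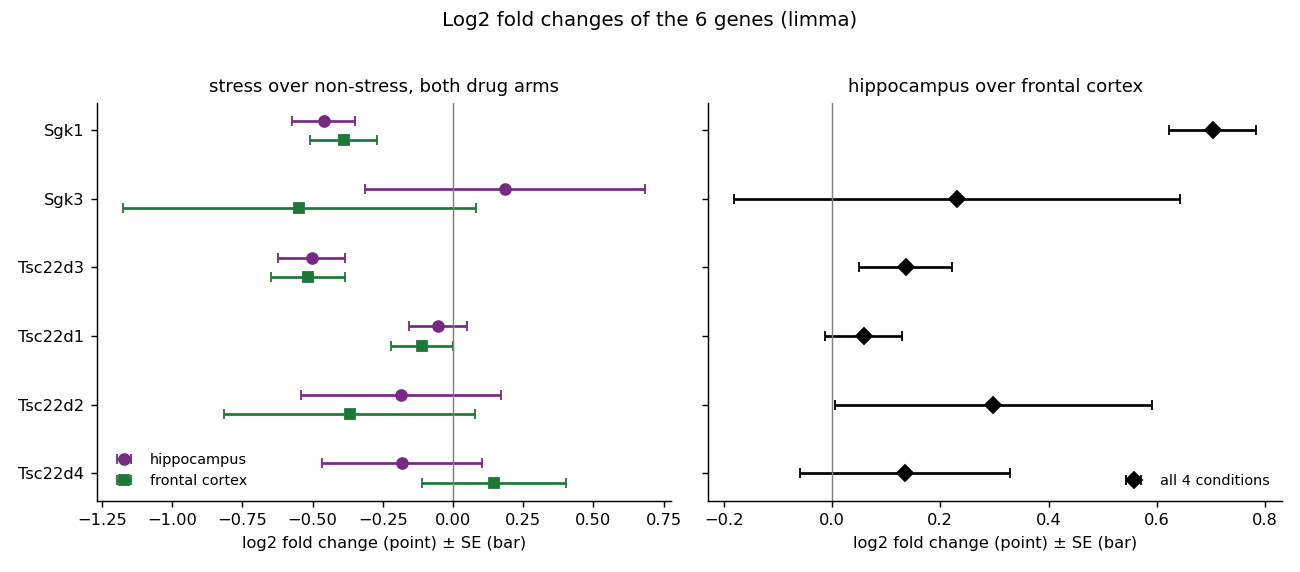
Log2 fold change ± SE of the 6 genes from limma, for stress over non-stress in each tissue (averaged over drug arms) and for hippocampus over frontal cortex. Sgk1 and Tsc22d3 lie below 0 for stress in both tissues (-0.52 to -0.39), Sgk1 lies at 0.70 for the tissue comparison, and the bars of Sgk3 and Tsc22d2 are the longest.

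Per length of exon, the levels of the 6 genes could be ordered (RPKM, reads per kilobase of the merged exons scaled to the gene reads of the library, n = 24 libraries per tissue). Tsc22d1 was highest in hippocampus at 42.4 ± 4.101, then Sgk1 at 20.6 ± 5.79, Tsc22d3 at 18.1 ± 4.24, Tsc22d4 at 11.7 ± 5.56, Tsc22d2 at 2.65 ± 1.20 and Sgk3 at 0.845 ± 0.452 (mean ± SD). The frontal cortex order put Tsc22d1 at 40.96 ± 5.03, Tsc22d3 at 16.5 ± 4.19, Sgk1 at 12.6 ± 3.23, Tsc22d4 at 10.5 ± 4.14, Tsc22d2 at 2.35 ± 1.32 and Sgk3 at 0.818 ± 0.497. Tsc22d1 did not overlap with any other member in either tissue. Sgk1, Tsc22d3 and Tsc22d4 overlapped as neighbours in both orders, as did Tsc22d2 and Sgk3, whereas Tsc22d4 and Tsc22d2 did not. Merged exons include isoforms that brain may not use, which shifts the level of a gene with a long rare exon.

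The partners of the SGK kinases were read as 3 lists. Among 14 upstream kinases and steroid receptors, 0 were called with stress in either tissue, and the median log2 fold change was -0.03 in hippocampus and -0.27 in frontal cortex, against -0.01 and -0.02 over all genes. Hsd11b1, which regenerates active corticosterone inside cells, was at -0.52 ± 0.20 in hippocampus (limma adjusted p = 0.718) and -0.42 ± 0.20 in frontal cortex (adjusted p = 0.941). Nr3c2, the mineralocorticoid receptor, was at -0.45 ± 0.30 in hippocampus, and Prr5l, a subunit of mTOR complex 2, at 0.36 ± 0.11 in frontal cortex (adjusted p = 0.941). Among 14 substrates 0 were called, with a median of -0.09 in hippocampus and 0.00 in frontal cortex. Nedd4l, the substrate through which SGK1 raises sodium channels at the cell surface, was at -0.19 ± 0.15 in hippocampus and -0.38 ± 0.17 in frontal cortex, and Wnk4, a kinase of salt transport, at -0.18 ± 0.12 and 0.61 ± 0.34. Of the AGC relatives, 12 tested in hippocampus and 11 in frontal cortex, 0 were called, with medians of -0.06 and -0.03. In that list Sgk2, listed in the hippocampus files only, was at 0.15 ± 0.18 and Prkca at -0.22 ± 0.23 in hippocampus, and Rps6kb2 was at 0.14 ± 0.13 and Rps6ka1 at 0.23 ± 0.23 in frontal cortex.

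Between the tissues some of these partners differed more than Sgk1. Hsd11b1 rose in hippocampus over frontal cortex by 1.79 ± 0.14 (log2, SE, limma adjusted p = 1.12e-13) and Nr3c2 by 1.97 ± 0.18 (adjusted p = 8.29e-12). They are 2 of the 3 upstream genes called higher, with 2 of the 14 called lower, where 25.7% of all genes were called. Of the 14 substrates, 3 were called higher and 2 lower, among them Foxo1 at 0.83 ± 0.089 (adjusted p = 4.35e-10) and Foxo3 at -0.68 ± 0.078 (adjusted p = 2.25e-09), both transcription factors that SGK phosphorylates. Of the AGC relatives, 1 of 11 was called, Rps6ka2 at -0.34 ± 0.12 (adjusted p = 0.0352).

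The 15 listed partners of TSC22 proteins included the AP-1 subunits that GILZ binds, and 0 were called with stress in either tissue. Fos was at 0.98 ± 0.27 in hippocampus (log2 fold change of stress over non-stress, SE, limma adjusted p = 0.502) and 0.59 ± 0.32 in frontal cortex (adjusted p = 0.941). Its mean was 248 ± 113 normalised reads in stress with esomeprazole, 434 ± 427 in stress with vehicle, 116 ± 31.2 in non-stress with esomeprazole and 170.5 ± 38.6 in non-stress with vehicle in hippocampus (SD, n = 6 each). Jun was at -0.52 ± 0.21 in hippocampus (adjusted p = 0.718) and 0.35 ± 0.22 in frontal cortex (adjusted p = 0.941). The list's median was -0.01 in hippocampus and -0.02 in frontal cortex, as over all genes to that precision. Between the tissues 3 of the 15 were called higher and 3 lower, against 25.7% of all genes called, with Fos at -1.20 ± 0.21 (adjusted p = 1.65e-05) and Jun at 0.67 ± 0.15 (adjusted p = 0.000496).

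Among 20 other genes known to respond to glucocorticoids, 1 was called with stress in hippocampus. Plin4, a lipid droplet coat protein, fell by 1.85 ± 0.31 in log2 units (limma, adjusted p = 0.046). That call was lost without the 5 hippocampus libraries with high striatal markers, where 0 genes were called, and in at least 16 of the 24 fits that left out 1 library, as these called 0 genes. It had 255 ± 111 normalised reads in stress with esomeprazole and 211 ± 85.5 in stress with vehicle, against 1034 ± 500.3 in non-stress with esomeprazole and 817 ± 467 in non-stress with vehicle (SD, n = 6 each). Of the 20, 17 had a negative fold change and 12 were lower at an unadjusted p under 0.05, as were 2.62% of all genes, and the median was -0.42 against -0.01 over all genes. Map3k6, a stress-activated kinase kinase kinase, was at -0.91 ± 0.18 (adjusted p = 0.109). In frontal cortex 0 were called, 10 had a positive and 10 a negative fold change, 6 were lower at an unadjusted p under 0.05 (1.08% of all genes were), and the list had a median of -0.06 against -0.02. Plin4 was at -1.64 ± 0.30 there (adjusted p = 0.200) and Galnt15, a glycosyltransferase, at -0.72 ± 0.15 (adjusted p = 0.215). Between the tissues 9 of the 20 were called higher and 4 lower, where 25.7% of all genes were called, with Fkbp5, a co-chaperone of the receptor, at 0.89 ± 0.099 (adjusted p = 9.45e-10) and Cdkn1a, a cell cycle inhibitor, at -2.02 ± 0.19 (adjusted p = 1.61e-11). The list was written with results of these libraries known and is not independent evidence of its direction.

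The genes whose log2 reads were most like each member over the 24 libraries of a tissue were listed as a description, from 13312 genes in hippocampus and 13313 in frontal cortex. For Sgk1, Plin4 came first in both tissues (Pearson's r 0.75 in hippocampus and 0.75 in frontal cortex) and Hif3a, a hypoxia-inducible factor subunit, second (0.73 in both). Galnt15, Xdh and Eva1a followed in hippocampus (0.71, 0.69 and 0.68) and Cpm, Pcolce2 and Micalcl in frontal cortex (0.70, 0.67 and 0.66). For Tsc22d3 the 5 in hippocampus were Map3k6 (0.85), Klf15 (0.85), Eva1a (0.84), Adipor2 (0.81) and Slc2a1 (0.80). In frontal cortex they were Smim3 (0.92), Slc2a1 (0.89), Map3k6 (0.86), Prr5 (0.86) and Paqr5 (0.85). Sgk1 and Tsc22d3 correlated with each other at 0.60 in hippocampus and 0.59 in frontal cortex. All these r values pool stressed and non-stressed libraries with group means kept, so a stress difference shared by both genes enters them. Correlations within groups were not computed. Slc2a1, the glucose transporter of the blood-brain barrier, is also in the endothelial marker list, whose sums were 18441, 20352 and 30094 in stressed and 18506, 21213 and 34419.8 in non-stressed hippocampus, and 19522, 22258 and 35229 in stressed and 19659.7, 21829 and 28618 in non-stressed frontal cortex (lowest, median and highest).

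The paralogues had closer likenesses. Sgk3 was most like Tomm70a (0.99), Fzd3 (0.99) and Kdm3a (0.99) in hippocampus and Fzd3, Nae1 and Tgfbr1 (0.997, 0.996 and 0.996) in frontal cortex. Tsc22d4 was most like Anapc11, 2810428I15Rik and Agpat1 (0.99 each) in hippocampus and Fau, Ddrgk1 and Sirt2 (0.99 each) in frontal cortex. Tsc22d2 was closest to Kansl1l, Rab39b and Camta1 (0.99, 0.99 and 0.98) and to 9930021J03Rik, Dbt and Ints6 (0.99 each). Tsc22d1 was closest to Wipi2, Sdf4 and Sppl3 (0.98, 0.97 and 0.97) and to Tollip, Dnajb1 and Apba1 (0.97 each). All these points share the no-feature share of their libraries, with which the 4 genes correlated as given above, and Sgk3 and Tsc22d2 correlated with each other at 0.90 in hippocampus and 0.97 in frontal cortex.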

How the data were processed

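The 48 libraries are of poly(A) mRNA, made with a stranded kit, and were read from both ends over 151 bases, per the labels. The submitters' processing notes name STAR, HTSeq and DESeq2 and the build mm10, with no versions. The deposited signal of a gene is its read count times 1 factor per library. Every deposited value was a whole number of reads within 0.02 (100%), and whole reads were recovered from that. In each file 24 names read as dates, none of them a member.

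Reads were rescaled by TMM within a tissue, or jointly over 48 libraries for the tissue comparison (edgeR 4.0.16). filterByExpr (minimum count 10) left 15062 genes for hippocampus, 15040 for frontal cortex and 14844 for the joint fit. The test was limma-trend (3.58.1) on log2(normalised reads + 1), fitted with group means, and genes with a Benjamini-Hochberg adjusted p under 0.05 are called. Fold changes are on that scale. Since the deposited values are not counts, edgeR's quasi-likelihood test and DESeq2 1.42.0 on the recovered reads stand as alternatives (R 4.3.3). Paralogue differences were tested by exact permutation of 853776 regroupings within drug arms, adjusted over 8 tests (Python 3.11.15, numpy 2.4.6, pandas 2.3.3, scipy 1.17.1, matplotlib 3.10.9). RPKM here is reads per kilobase of merged exons (GENCODE vM21), scaled to each library's gene reads. The fits were tested on simulated data.

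Named genes are the 6 members, the 2 genes of smallest p per pathway list in the averaged stress and tissue comparisons, and the 5 (Sgk1, Tsc22d3) or 3 (other members) genes of highest r among those averaging 1 or more in log2 CPM. The result of 1 gene so chosen is not reported here. The members and the 5 pathway lists and 10 marker lists were chosen with earlier results of these data known. Other settings were edgeR, DESeq2, median-of-ratios and deposited scaling, no filter, a pseudocount of 5, the replicate number as a block, the no-feature share as a covariate, leaving out libraries under 12% no-feature reads, leaving out the rarer marker class (high striatal sums in hippocampus, low olfactory bulb sums in frontal cortex), and leaving out each library in turn. The series design gives 6 mice per group, and p-values measure the spread between these libraries.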

Additional observations from a re-analysis of the deposited data

Results flagged for a closer look

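In 6 of the 48 sets of 6 libraries (1 gene, 1 condition, 1 tissue), 1 library stood further from the rest than Dixon's 95% limit allows, where chance alone gives about 1 in 20. Of these 6 values, 5 belong to libraries with a no-feature share under 12%.

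Sgk1 had 4043 normalised reads in hippocampus stress esomeprazole 1, and the next library of that group had 3034. The no-feature share of this library was 17.8%.

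Tsc22d1 had 19903 normalised reads in hippocampus non-stress esomeprazole 4, whose no-feature share was 6.12%, and the next library had 12642. The same library had 11328 normalised reads of Tsc22d4, with 2569 in the next. Tsc22d4 also stood out at 7430.0 in hippocampus stress vehicle 3 (no-feature share 5.03%, next library 3031), at 6152 in frontal cortex non-stress vehicle 4 (4.50%, next 2246) and at 5893 in frontal cortex non-stress esomeprazole 2 (7.75%, next 3001).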

How the results depend on the processing

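Of 664 alternative values for 58 results, 600 kept their direction and side of the threshold (counts within 1.5 times), 9 passed the threshold only in the alternative, 33 changed sign and 22 counts or values moved. Among the stress fold changes in hippocampus, DESeq2 called Sgk1 (-0.50) and Tsc22d3 (-0.51). Sgk3 (0.18) turned to -0.034 with the no-feature covariate, to -0.49 without the rarer marker class and to between -0.073 and 0.48 when 1 library was left out. Tsc22d1 turned to 0.025 and Tsc22d4 to 0.023 without libraries under 12%, and leaving out 1 library gave -0.090 to 0.0032 for Tsc22d1, -0.35 to 0.0088 for Tsc22d2 and -0.33 to 0.015 for Tsc22d4. In frontal cortex Tsc22d1 turned to 0.027 without the rarer class, and Tsc22d3 was called with the covariate (-0.54). For esomeprazole in hippocampus Sgk3 was -0.036 with the covariate and -0.47 without the rarer class, Tsc22d2 0.087 under deposited scaling, and Tsc22d4 0.15 under deposited scaling, 0.16 with the covariate, 0.057 without libraries under 12% and 0.015 without the rarer class. Leaving out 1 library gave -0.034 to 0.056 for Tsc22d1, -0.26 to 0.094 for Tsc22d2 and -0.23 to 0.11 for Tsc22d4. For esomeprazole in frontal cortex, without libraries under 12% and without the rarer class, Sgk1 was -0.013 and -0.061 and Tsc22d3 -0.041 and -0.024, and Tsc22d4 was -0.016 by edgeR, -0.035 by DESeq2 and -0.059 to 0.20 with 1 library left out. Between the tissues Sgk3 was -0.084 without libraries under 12% and -0.023 without the rarer class. The cause of these changes was not tested.

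The 2 genes called with stress in hippocampus became 7 by edgeR, 127 by DESeq2, 14 with the covariate, 12 without libraries under 12%, 0 without the rarer class and 0 to 5 with 1 library left out (0 in 16 of 24 fits, 5 without stress esomeprazole 5). By DESeq2 the hippocampal vehicle and esomeprazole arms gave 1 and 68 (0 to 1 for esomeprazole with 1 library left out). In frontal cortex the averaged stress count of 0 became 1 by edgeR, 10 by DESeq2, 24 with the covariate and 0 to 1 with 1 library left out. Its vehicle arm gave 1 by DESeq2, 4 with the covariate and 0 to 1 with 1 library left out, and its esomeprazole arm 1 by DESeq2. The tissue count of 3817 became 7439 with the covariate and 6603 without libraries under 12%, and the stress-by-tissue count 15 by DESeq2.

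Among the pairs, Sgk1 minus Sgk3 in hippocampus was -0.56 without libraries under 12%, 0.0036 without the rarer class and -0.94 to -0.43 with 1 library left out, and in frontal cortex -0.17 without libraries under 12% and -0.14 (without stress esomeprazole 4) to 0.42. Tsc22d3 minus Tsc22d4 in hippocampus was -0.52 without libraries under 12% and -0.50 to -0.20 with 1 library left out. Tsc22d3 minus Tsc22d2 in frontal cortex was 0.14 without the rarer class and -0.38 to 0.039 (highest without non-stress esomeprazole 3). Tsc22d3 minus Tsc22d1 was called in all settings run, in both tissues, and in each of 24 fits with 1 library left out (-0.49 to -0.41 in hippocampus, -0.44 to -0.38 in frontal cortex).

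The replicate block changed the hippocampal stress count to 1, and gave Sgk1 0.70 between the tissues (adjusted p = 4.2e-10) and Tsc22d3 minus Tsc22d1 an adjusted exact permutation p of 0.00391 in both tissues. Whether a number marks the same mouse was not settled. Same-numbered libraries correlated over 0.1 in 22 of 36 pairs in hippocampus and 23 of 36 in frontal cortex. Within a tissue such pairs join different conditions and so different mice, and these counts cannot bear on the question. Across tissues 15 of 24 same-numbered pairs correlated over 0.1 (r from -0.83 to 0.91, median 0.42), and 8 of 24 correlated best with their own number. Pairs with different numbers were not summarised for comparison, so no conclusion is drawn from these counts. Deposited scaling was not run across tissues, which the authors scaled separately.

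Low read counts limit Sgk3 more than the other members. It had as few as 25 reads in a library, and the fewest of the others were 159 (Tsc22d2) and 1372 (Tsc22d4). Sgk3 levels went with the no-feature share (Pearson's r 0.91 in hippocampus and 0.93 in frontal cortex), and a part of sequencing depth in the low counts was not tested.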
